A study of Zonotrichia albicollis with 38 samples.

Results

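Hypothalamic transcriptomes of male white-throated sparrows (Zonotrichia albicollis) that carried the stage label I, L or L/I were compared with those of males that carried the label E. The comparison takes all 19 hypothalamic (HYP) libraries of a series of 38, 5 of them from birds labelled I, L or L/I and 14 from birds labelled E. The 5 birds were 2 labelled I, 2 labelled L and 1 labelled L/I, and the labels give no meaning for any of these codes. The 5 comprised 3 tan-striped (TS) and 2 white-striped (WS) birds, and the 14 comprised 6 TS and 8 WS birds. The age labels read SY for 2 and ASY for 3 of the 5 birds, and SY for 7 and ASY for 7 of the 14. WS birds carry an inverted form of chromosome ZAL2 that TS birds lack, so morph was a term in every fit over both morphs, except where it was left out as an alternative. All 19 males were free-living, were taken in May and June on the day after a staged territorial intrusion with song playback, and gave a second library from the medial amygdala (MeA). Single E birds are given by their title number (Sample_23604), and the I and L birds by morph, the TS bird first of each pair. Each HYP library came from 4 pooled punches of frozen sections, which took in anterior and ventromedial hypothalamus, the paraventricular nucleus and the caudal part of the medial preoptic area. Stage was a property of the wild birds and not an assigned treatment. Beside it, the labels record no hormone level, collection date or behaviour for single birds.

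In songbirds the hypothalamus and preoptic area join the signals that change over a breeding season to hormone release and social behaviour. Gonadal testosterone acts there directly and, after conversion by aromatase, through estrogen receptors. Vasoactive intestinal peptide (VIP) is the main releaser of pituitary prolactin in birds, and prolactin is associated with incubation and parental care. Prolactin and other cytokine-type hormones signal through JAK kinases and STAT factors, whose target genes include feedback inhibitors of the SOCS family.

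Library totals ran from 7150476 to 12441525 gene-assigned reads, 10753447 to 12441525 in the I, L or L/I birds and 7150476 to 12394806 in the E birds (exact permutation within morph, two-sided p = 0.327). The E bird Sample_23604 had the lowest total and the highest score on the second principal component, 28.4, where the other birds lay between -16.6 and 6.92. The stage groups overlapped on each of the first 4 components (lowest exact permutation p = 0.117, 3780 assignments, adjusted p = 0.448 over the 5 values tested). No gene was called without bird Sample_23604 either (743 genes at an unadjusted p under 0.05). SNAP25, a synaptic gene, was at 1432 ± 56.2 CPM in I, L or L/I birds and 1371 ± 90.2 CPM in E birds (CPM, counts scaled to a common library size, mean ± SD, n = 5 and 14 here and throughout). Of hypothalamic transcription factors found in the count table, 25 of 25 passed the filter on low counts. So did 20 of 20 markers of pallium and thalamus, so passing the filter does not mark the region. The hypothalamic factors summed to 516 CPM in I, L or L/I birds and 509 CPM in E birds. The pallium and thalamus markers summed to 805 and 828 CPM.

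No gene passed the test of stage. Of 12428 genes tested, 0 (0%) had an adjusted p under 0.05 with edgeR's quasi-likelihood test, and the lowest adjusted p was 0.0998. At an unadjusted p under 0.05 there were 706 genes (5.68%), close to the share that the threshold itself sets, 367 (2.95%) with a positive and 339 (2.73%) with a negative log2 fold change. Fold changes are given throughout as I, L or L/I birds over E birds. DESeq2 on the same counts called 14 genes (0.113%) and limma-voom called 1. The median standard error of a log2 fold change was 0.082, and for 11808 genes the 95% interval, which is not adjusted for the number of genes, lay within 1 log2 unit of 0. A negative log2 fold change was estimated for 51.8% of all genes, and 43 genes had an estimate beyond 1 log2 unit in either direction.

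The 10 genes that follow are the 5 of lowest p in each direction, given because no gene was called. CCDC3, a secreted coiled-coil protein studied in fat and blood vessel walls, had 9.58 and 6.71 CPM in the I birds, 5.98 and 6.73 CPM in the L birds and 6.84 CPM in the L/I bird, against 3.15 to 5.95 CPM (median 3.73) in the E birds. Every I, L or L/I bird lay above every E bird, though the lowest of the 5 exceeded the highest E bird by little (edgeR log2 fold change 0.83 ± 0.14 SE, adjusted p = 0.0998). It was 1 of 4 genes (0.0322% of those tested) whose 5 values lay wholly outside the range of the 14. How many genes would do so under shuffled stage labels was not tested, so this count alone shows no stage difference. CCDC3 was called by DESeq2 (adjusted p = 0.000568), by limma-voom (adjusted p = 0.0243) and by edgeR with age class as a further term (adjusted p = 0.0258). Without the TS I bird, whose value was far above the others, its log2 fold change was 0.71 and its edgeR adjusted p was 0.324.

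CISH encodes a SOCS-family inhibitor that STAT5 induces. It had 79.6 and 43.2 CPM in the I birds, 46.6 and 52.4 CPM in the L birds and 63.4 CPM in the L/I bird, against 18.9 to 51.4 CPM (median 29.6) in the E birds. One E bird reached into the range of the 5 (edgeR log2 fold change 0.86 ± 0.17 SE, adjusted p = 0.153). ALDH1A1, an enzyme that makes retinoic acid, had 22.0 and 9.22 CPM in the I birds, 5.89 and 32.2 CPM in the L birds and 28.7 CPM in the L/I bird, against 0.507 to 18.9 CPM (median 1.52) in the E birds. The TS L bird was the lowest of the 5, and 2 E birds lay within their range (edgeR log2 fold change 2.81 ± 0.59 SE, adjusted p = 0.179). Its estimate had a 95% interval of 1.60 to 4.03 log2 units, and it was called when only the SY birds (adjusted p = 0.00347) or only the TS birds (adjusted p = 0.0377) were fitted with edgeR. The 2 SY birds among the 5 were both TS, so these fits share birds.

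The other genes of positive estimate were vascular or matrix genes. FN1, which encodes fibronectin, had 71.1 and 83.2 CPM in the I birds, 68.3 and 67.4 CPM in the L birds and 68.1 CPM in the L/I bird, against 39.2 to 69.0 CPM (median 53.2) in the E birds (edgeR log2 fold change 0.41 ± 0.087 SE, adjusted p = 0.179). VWF, the endothelial von Willebrand factor, had 36.2 and 28.9 CPM in the I birds, 27.7 and 38.6 CPM in the L birds and 28.1 CPM in the L/I bird, against 13.4 to 30.1 CPM (median 22.5) in the E birds (edgeR log2 fold change 0.53 ± 0.11 SE, adjusted p = 0.179). In each, 1 E bird lay at or above the lowest of the 5. The edgeR adjusted p of FN1 was 0.699 without the WS I bird, and that of VWF was 0.720 without the WS L bird. VWF belongs to the list of 22 endothelial and mural cell markers, whose summed level was 709.9 to 817 CPM in I, L or L/I birds and 578 to 874 CPM in E birds. The part of vascular cell content in these values was not tested.

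Among genes of negative estimate, RGS2, a G protein signalling regulator induced by neuronal activity and cAMP, had 11.8 and 11.9 CPM in the I birds, 11.5 and 10.0 CPM in the L birds and 8.30 CPM in the L/I bird, against 12.2 to 17.2 CPM (median 14.7) in the E birds. All 5 birds lay below all 14 (edgeR log2 fold change -0.47 ± 0.095 SE, adjusted p = 0.153). MYC, a growth-related transcription factor, had 12.5 and 10.8 CPM in the I birds, 11.1 and 12.8 CPM in the L birds and 8.84 CPM in the L/I bird, against 12.6 to 18.4 CPM (median 15.5) in the E birds (edgeR log2 fold change -0.46 ± 0.10 SE, adjusted p = 0.179). Here 1 E bird lay within the range of the 5. TXN, which encodes the redox protein thioredoxin, had 234 and 215 CPM in the I birds, 269 and 287 CPM in the L birds and 240.4 CPM in the L/I bird, against 274 to 345 CPM (median 315) in the E birds (edgeR log2 fold change -0.34 ± 0.066 SE, adjusted p = 0.153). The L birds were the highest of the 5, and the WS L bird lay above the lowest E birds.

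NAP1L1, a histone chaperone, had 828 and 843 CPM in the I birds, 941 and 886 CPM in the L birds and 854 CPM in the L/I bird, against 910.2 to 1148 CPM (median 1030.1) in the E birds. The groups met only at the TS L bird and the lowest E bird, and the estimate was small in size and in error (edgeR log2 fold change -0.25 ± 0.046 SE, adjusted p = 0.118). SGTB, a co-chaperone that binds heat shock proteins, had 258 and 272 CPM in the I birds, 303 and 289 CPM in the L birds and 275 CPM in the L/I bird, against 303 to 395 CPM (median 328) in the E birds (edgeR log2 fold change -0.26 ± 0.056 SE, adjusted p = 0.179). Of these 10 genes, DESeq2 called 9, all except ALDH1A1, at adjusted p-values of 0.000497 to 0.0160. The other genes that DESeq2 called, named here after their values were seen, were the lipase PNPLA2 (0.23 ± 0.052, log2 fold change ± SE from edgeR), the deubiquitinase USP31 (0.27 ± 0.059), the melanocortin receptor MC4R (-0.39 ± 0.086) and the unnamed loci LOC102064103 (0.43 ± 0.10) and LOC102067211 (-0.53 ± 0.12). None had an edgeR adjusted p under 0.05.

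**Figure D1:**
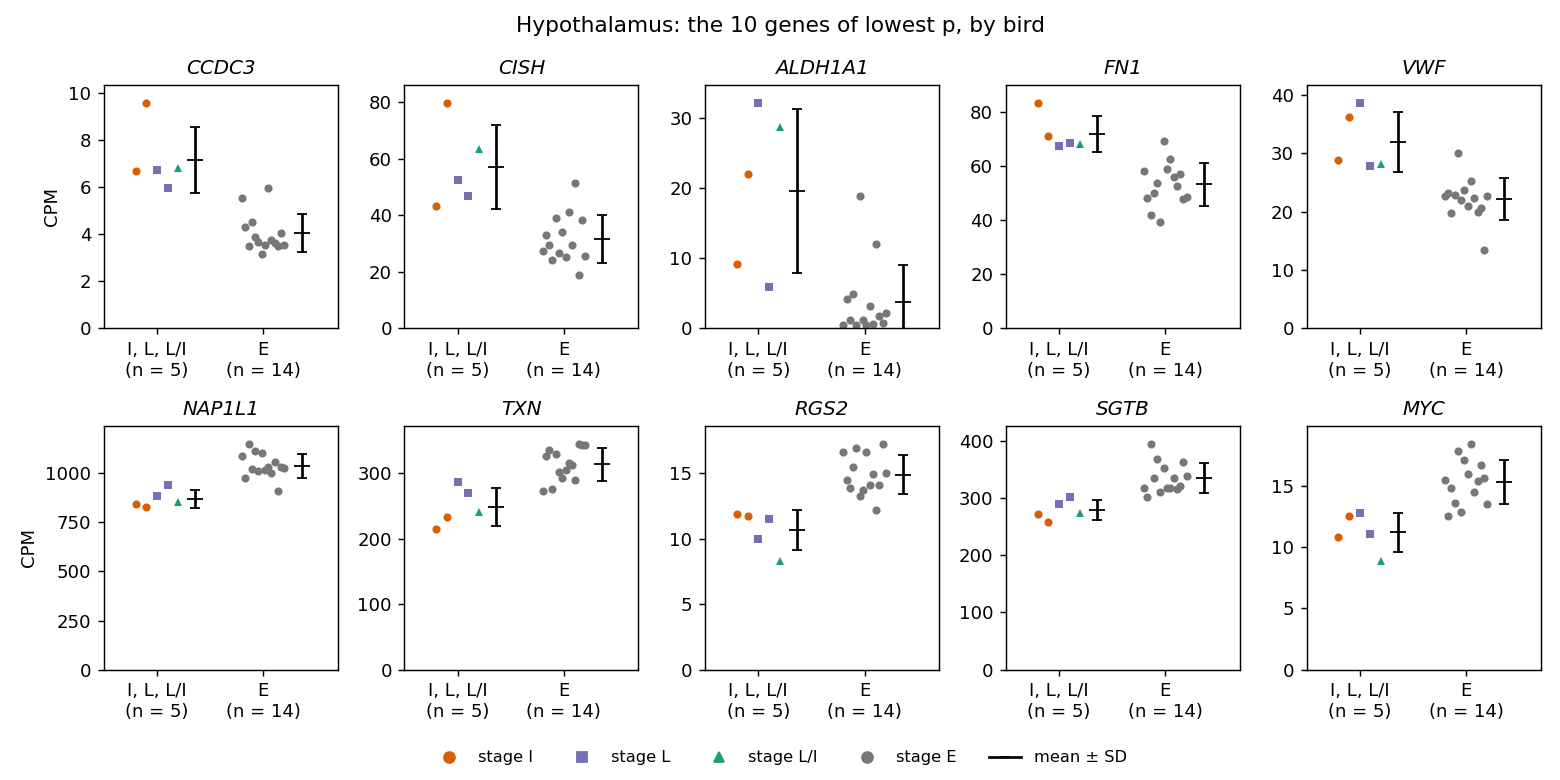
Normalized level (CPM, linear axis from 0) of the 10 genes of lowest p in each of the 19 hypothalamic libraries, with birds labelled I, L or L/I on the left and birds labelled E on the right, and the mean ± SD of each group. The groups are separate for CCDC3 and RGS2, and ALDH1A1 has the widest spread among the 5 birds, 5.89 to 32.2 CPM.

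The SOCS family and BCL6, genes tied to cytokine receptor signalling, were looked at after the CISH values were seen. BCL6 and SOCS2 were named after their own values were seen, and no fixed list of STAT5 targets was examined. SOCS2, a feedback inhibitor of growth hormone and prolactin receptors in mammals, had 4.53 and 3.23 CPM in the I birds, 4.08 and 4.58 CPM in the L birds and 5.47 CPM in the L/I bird, against 1.67 to 3.99 CPM (median 2.79) in the E birds. In all, 5 E birds lay within the range of the 5 (edgeR log2 fold change 0.58 ± 0.17 SE, adjusted p = 0.561). BCL6, a repressor that STAT5 represses in mammalian cells, had 28.7 and 35.7 CPM in the I birds, 33.7 and 36.9 CPM in the L birds and 28.1 CPM in the L/I bird, against 26.4 to 86.0 CPM (median 53.4) in the E birds. A single E bird, at 26.4 CPM, lay below all 5, and the others lay between 41.2 and 86.0 CPM, above all 5 (edgeR log2 fold change -0.83 ± 0.19 SE, adjusted p = 0.232). The 6 other SOCS genes had log2 fold changes of 0.22 ± 0.19 (SOCS1), -0.073 ± 0.27 (SOCS3), -0.015 ± 0.092 (SOCS4), 0.042 ± 0.059 (SOCS5), 0.012 ± 0.050 (SOCS6) and 0.017 ± 0.078 (SOCS7), all with their SE. STAT5B was at 78.7 ± 6.76 CPM in I, L or L/I birds and 78.0 ± 7.40 CPM in E birds, with a log2 fold change of -0.0035 ± 0.066. The receptor gene PRLR was at 47.1 ± 7.41 CPM in I, L or L/I birds and 45.3 ± 4.93 CPM in E birds (edgeR log2 fold change 0.068 ± 0.090 SE, adjusted p = 0.987), with an interval of -0.12 to 0.25 log2 units.

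Members of each gene list are counted below where their unadjusted p was under 0.05, as higher where the log2 fold change was positive and as lower where it was negative. By the same count, 2.95% of all genes tested were higher and 2.73% lower, the shares to set beside each list. No member of any list was called, and values in brackets are edgeR log2 fold changes ± SE. Members of a list were measured in the same birds and may vary together, so the counts are not counts of independent results. Genes of steroid synthesis and reception included 6 members of 24 tested with an unadjusted p under 0.05, each with a negative estimate, against 2.73% of all genes. The median log2 fold change over the list was -0.022, against -0.0037 over all genes tested. CYP19A1, the aromatase that converts testosterone to estradiol, had 157 and 196 CPM in the I birds, 236 and 147 CPM in the L birds and 224 CPM in the L/I bird, against 211 to 446 CPM (median 258) in the E birds. In all, 3 E birds lay within the range of the 5 (edgeR log2 fold change -0.59 ± 0.16 SE, adjusted p = 0.475). SRD5A2, a reductase that forms the androgen dihydrotestosterone, had 3.92 and 5.01 CPM in the I birds, 5.98 and 7.57 CPM in the L birds and 4.74 CPM in the L/I bird, against 4.68 to 11.7 CPM (median 8.42) in the E birds (edgeR log2 fold change -0.64 ± 0.17 SE, adjusted p = 0.475). For SRD5A2, 3 E birds lay at or below the highest of the 5.

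Other members past the unadjusted threshold were the progesterone receptor PGR (-0.27 ± 0.10), the glucocorticoid-induced co-chaperone FKBP5 (-0.69 ± 0.28) and the glucocorticoid-inactivating enzyme HSD11B2 (-0.34 ± 0.15), given as log2 fold change ± SE. FKBP5 was at 13.8 ± 9.39 CPM in I, L or L/I birds and 23.1 ± 8.58 CPM in E birds, and the WS L bird was the highest of the 5. The estrogen receptors had estimates near 0. ESR1 was at 18.5 ± 3.54 CPM in I, L or L/I birds and 17.6 ± 3.75 CPM in E birds, with a log2 fold change of 0.053 ± 0.15 and an interval of -0.25 to 0.36. ESR2 was at 19.0 ± 3.66 CPM in I, L or L/I birds and 18.6 ± 4.16 CPM in E birds, with a log2 fold change of -0.0075 ± 0.15 and an interval of -0.32 to 0.30. FKBP4, a receptor co-chaperone and the most abundant member, had -0.071 ± 0.059. Without the WS I bird, 3 members and not 6 passed the unadjusted threshold.

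VIP had 123 and 62.3 CPM in the I birds, 75.0 and 101 CPM in the L birds and 106 CPM in the L/I bird, against 38.9 to 111 CPM (median 66.2) in the E birds. The WS I bird lay near the E median, and the E bird with the highest value exceeded all but 1 of the 5 (edgeR log2 fold change 0.64 ± 0.16 SE, adjusted p = 0.435). Within the SY birds alone VIP was called by edgeR (log2 fold change 1.21, adjusted p = 0.0366), and within the ASY birds alone its log2 fold change was 0.18 (adjusted p = 0.999). The SY birds among the 5 were the TS I bird and the L/I bird, both TS, so age class and morph cannot be fully told apart here. The difference between age classes was not tested. VIPR1, a VIP receptor, had a log2 fold change of 0.27 ± 0.13. These were the 2 of 13 tested genes of the reproductive axis with an unadjusted p under 0.05, and the list's median was -0.028. NPVF, which encodes gonadotropin-inhibitory hormone, had 637 and 574 CPM in the I birds, 523 and 969.9 CPM in the L birds and 187 CPM in the L/I bird, against 373 to 1164 CPM (median 722) in the E birds (edgeR log2 fold change -0.34 ± 0.26 SE, adjusted p = 0.948). GNRH1, the gonadotropin-releasing hormone, was low, at 0.463 ± 0.347 CPM in I, L or L/I birds and 1.77 ± 2.93 CPM in E birds, and its interval of -3.53 to 0.27 log2 units includes 0.

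Among 27 neuropeptide genes, VIP, somatostatin (SST, 0.20 ± 0.075) and the natriuretic peptide NPPC (-0.37 ± 0.17) had an unadjusted p under 0.05, and the median log2 fold change was -0.030. The feeding peptide NPY was at 68.6 ± 18.8 CPM in I, L or L/I birds and 63.7 ± 28.8 CPM in E birds (0.14 ± 0.22). AGRP was at 2.42 ± 2.48 CPM in I, L or L/I birds and 4.29 ± 13.7 CPM in E birds, where bird Sample_23604 held 51.9 CPM and no other E bird over 2.35 CPM. Its interval was -2.44 to 2.65 log2 units, and its log2 fold change was 1.89 without that bird and -1.24 without the TS I bird. Galanin (GAL) was at 532 ± 136 CPM in I, L or L/I birds and 611 ± 108 CPM in E birds (-0.24 ± 0.13). The enkephalin precursor PENK was at 1296 ± 169 CPM in I, L or L/I birds and 1490.2 ± 251 CPM in E birds (-0.22 ± 0.11), and the granin SCG2 at 3645 ± 667 CPM in I, L or L/I birds and 3658 ± 378 CPM in E birds (0.024 ± 0.069). The stress and thyroid-axis releasers CRH (-0.090 ± 0.16) and TRH (-0.042 ± 0.28) had intervals that included 0.

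**Figure D2:**
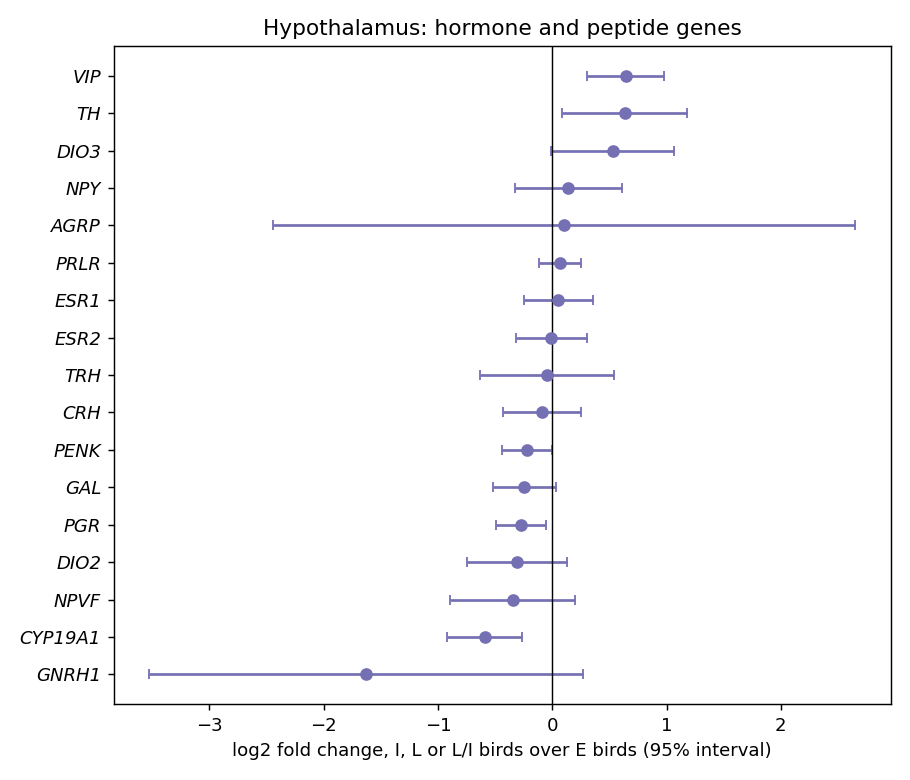
Log2 fold change (I, L or L/I birds over E birds, points) with 95% interval (bars, not adjusted for the number of genes) for 17 hormone, receptor and peptide genes in the hypothalamus. The intervals of VIP, TH, PGR and CYP19A1 do not include 0, but none of them passed the adjusted test, and AGRP and GNRH1 have the widest intervals.

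The list of receptors for these peptides also held CRHBP, a binding protein and not a receptor. Members of the list split in direction, with 3 higher, CRHBP among them, and 4 lower of 34 tested at an unadjusted p under 0.05. The list's median was -0.021. MC4R, the melanocortin receptor that restrains feeding in mammals, had 61.1 and 70.7 CPM in the I birds, 66.2 and 79.9 CPM in the L birds and 64.8 CPM in the L/I bird, against 71.9 to 118 CPM (median 87.3) in the E birds (edgeR log2 fold change -0.39 ± 0.086 SE, adjusted p = 0.179). The relaxin-3 receptor RXFP3 (-0.34 ± 0.10), the NPY receptor NPY2R (-0.15 ± 0.058) and the galanin receptor GALR3 (-0.67 ± 0.28) also had negative estimates. The leptin receptor LEPR (0.65 ± 0.24), VIPR1 and the CRH-binding protein CRHBP (0.57 ± 0.19) had positive ones. The most abundant receptors, SSTR1 (0.093 ± 0.064) and ADCYAP1R1 (0.042 ± 0.097), were near 0. Without the L/I bird, 2 and not 4 receptors had a negative estimate past the unadjusted threshold.

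Of 39 monoamine genes, 3 had an unadjusted p under 0.05, 5.13% higher and 2.56% lower, against 2.95% and 2.73% of all genes. TH, the rate-limiting enzyme of dopamine synthesis, had 14.7 and 19.6 CPM in the I birds, 22.3 and 36.5 CPM in the L birds and 27.5 CPM in the L/I bird, against 6.98 to 31.9 CPM (median 16.5) in the E birds (edgeR log2 fold change 0.63 ± 0.26 SE, adjusted p = 0.794). The 2 highest of the 5 were the WS L bird and the L/I bird. HDC, the histamine-forming enzyme, had 1.57 and 1.29 CPM in the I birds, 0.816 and 32.8 CPM in the L birds and 3.28 CPM in the L/I bird, against 0.259 to 9.29 CPM (median 1.52) in the E birds (edgeR log2 fold change 1.65 ± 0.62 SE, adjusted p = 0.735). The WS L bird held most of the signal in the 5, and without that bird the log2 fold change was -0.23. The serotonin receptor HTR5A had -0.44 ± 0.18. The abundant MAOB (0.031 ± 0.063) and HTR1B (-0.021 ± 0.061) were near 0. Of genes for GABA and glutamate transmission, 0 higher and 1 lower of 41 tested passed the unadjusted threshold, with GAD2, the GABA-forming enzyme, at 0.083 ± 0.060, ABAT at -0.028 ± 0.038 and the lower member GRIN3A at -0.11 ± 0.050. Of synaptic release genes, 1 higher and 0 lower of 20 did, with SNAP25 at 0.075 ± 0.044, SYT1 at 0.035 ± 0.053 and the higher member CPLX1 at 0.13 ± 0.050.

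Oligodendrocyte markers had the largest share of members past the unadjusted threshold among the 28 lists with a tested member. Of 14 tested, 9 had an unadjusted p under 0.05, each with a positive estimate, against 2.95% of all genes, and the list's median log2 fold change was 0.46. The markers were measured in the same birds and may vary together, so these are not 9 independent results. The count was 6 to 10 without single birds, lowest without the TS I bird, 5 in TS birds alone, 1 in SY birds alone and 1 with L birds alone against E, and the median was 0.24 on the deposited log2 values. The myelin gene MBP had 921 and 1029 CPM in the I birds, 693 and 1083 CPM in the L birds and 739 CPM in the L/I bird, against 274 to 926 CPM (median 512) in the E birds (edgeR log2 fold change 0.58 ± 0.20 SE, adjusted p = 0.686). The WS I and WS L birds lay above every E bird, and the other 3 lay within the E range. The summed level of the 14 markers was 1839 to 2453 CPM in I, L or L/I birds and 803 to 2143 CPM in E birds, and the groups overlapped, with 3 E birds at or above the lowest of the 5. Others among the 9 were CNP (0.63 ± 0.18), UGT8 (0.45 ± 0.16), MYRF (0.48 ± 0.17), CLDN11 (0.55 ± 0.22), BCAS1 (0.31 ± 0.13), FA2H (0.51 ± 0.19) and TMEM125 (0.59 ± 0.19). In these bulk samples more cells of a type and more RNA per cell cannot be told apart, and the part of either in the other results was not tested.

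Markers of microglia and macrophages stood at 6 higher and 0 lower of 16 tested (37.5% and 0%), against 2.95% and 2.73% of all genes. Their median was 0.20, and their summed level was 214 ± 18.5 CPM in I, L or L/I birds and 178 ± 29.1 CPM in E birds. CD74, an antigen presentation gene, was at 103 ± 21.1 CPM in I, L or L/I birds and 77.3 ± 19.9 CPM in E birds (edgeR log2 fold change 0.44 ± 0.15 SE, adjusted p = 0.686). Without the WS I bird, 3 and not 6 microglial markers passed the unadjusted threshold, and in ASY birds alone 1 did. Astrocyte and tanycyte markers ran the other way, at 0 higher and 3 lower of 15 tested and a median of -0.12. The water channel AQP4 (-0.21 ± 0.063), the glutamate transporter SLC1A2 (-0.16 ± 0.059) and the fatty acid binder FABP7 (-0.20 ± 0.095) were the 3, and GLUL had -0.12 ± 0.10. The astrocyte count was 5 without the TS I bird, 5 without the E bird Sample_23625 and 0 in SY birds alone. Endothelial and mural markers stood at 3 higher and 0 lower of 22 (median 0.11), with VWF, SOX18 (0.31 ± 0.10) and the pericyte gene RGS5 (0.20 ± 0.079), and VTN at 0.080 ± 0.11. Without the TS L bird there were 5 such markers.

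**Figure D3:**
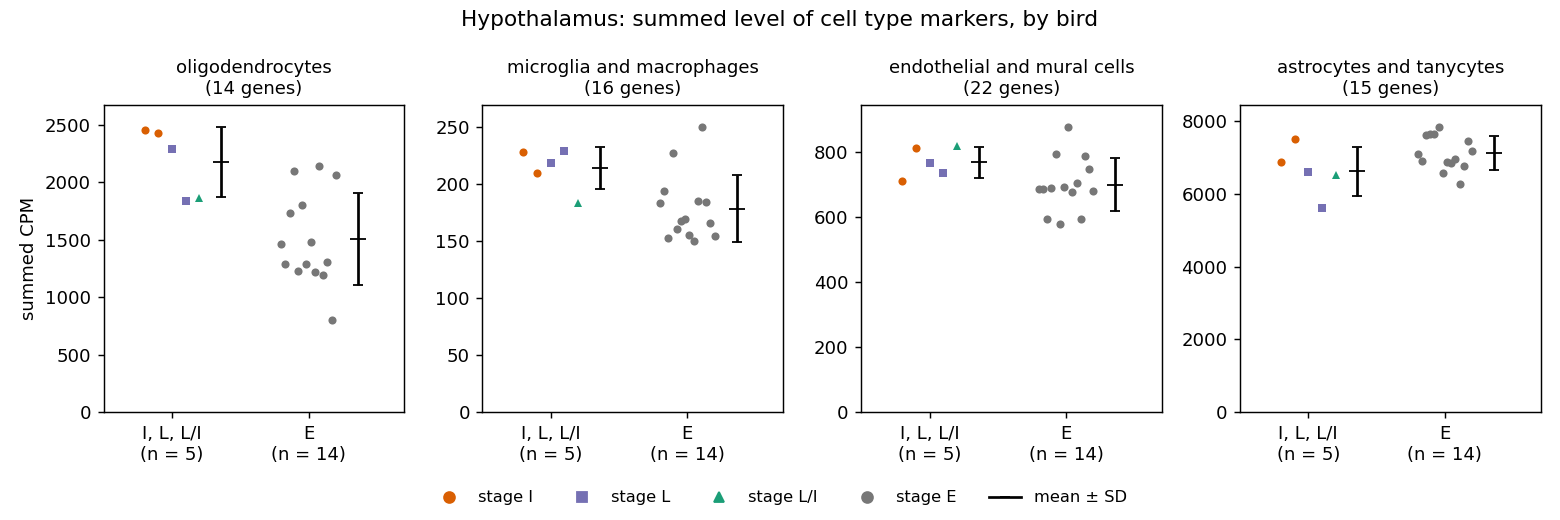
Summed level (CPM, linear axis from 0) of the tested markers of 4 cell type lists in each hypothalamic library, with birds labelled I, L or L/I on the left, birds labelled E on the right and the mean ± SD of each group. The oligodendrocyte sum averages 2177 CPM in I, L or L/I birds and 1509 CPM in E birds, and in all 4 lists the groups overlap.

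Genes of interferon response and innate immunity stood at 4 higher and 0 lower of 23 tested (median 0.11), among them PARP14 (0.40 ± 0.11), TLR7 (0.79 ± 0.33) and ZNFX1 (0.30 ± 0.14). The abundant B2M (0.080 ± 0.14) and HERC4 (-0.029 ± 0.043) were near 0, and the count was 2 without the TS I bird, without the L/I bird or without the WS I bird. Leptomeningeal and choroid plexus or ependymal markers had 0 of 13 and 0 of 20 past the unadjusted threshold, with DCN at 0.29 ± 0.15, COL1A2 at -0.042 ± 0.12, CCDC39 at -0.0092 ± 0.097 and TPPP3 at 0.011 ± 0.10. Pituitary markers had 1 higher and 0 lower of 5 tested (TBX19, 0.52 ± 0.22; CHGB, -0.014 ± 0.069), and blood cell markers 1 higher and 0 lower of 8 (THBS1, 0.30 ± 0.12; EPB42, 0.023 ± 0.16), with all 8 blood estimates positive. Markers of pallium and thalamus had 1 higher and 0 lower of 20 (PROX1, 0.29 ± 0.13), and oligodendrocyte precursor markers 0 higher and 1 lower of 9 (PTPRZ1, -0.13 ± 0.055).

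Hypothalamic transcription factors stood at 4 higher and 1 lower of 25 tested. Over the whole list, 12 estimates were positive and 13 negative, and the median was -0.028. Those of positive estimate included MEIS2 (0.27 ± 0.095), OTP (0.20 ± 0.091) and LMX1B (0.69 ± 0.33), and the negative one was NR5A2 (-0.83 ± 0.22). ISL1 (0.045 ± 0.10) and FEZF1 (-0.21 ± 0.14) were the most abundant of the list. How the punches of each bird sampled the subregions was not tested.

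Photoperiod and thyroid hormone genes stood at 0 higher and 1 lower of 18 tested, with the thyroid receptor THRB at -0.21 ± 0.070. DIO2, which activates thyroid hormone, was at 4.13 ± 1.29 CPM in I, L or L/I birds and 5.21 ± 1.47 CPM in E birds (-0.31 ± 0.21), and DIO3, which inactivates it, at 2.79 ± 0.796 CPM in I, L or L/I birds and 1.92 ± 0.667 CPM in E birds (0.53 ± 0.26). Circadian clock genes stood at 0 higher and 0 lower of 20, with NR1D2 at -0.0090 ± 0.24 and TEF at 0.0079 ± 0.081. Immediate early genes, which neuronal activity induces, stood at 2 higher and 1 lower of 18 (NR4A2, 0.62 ± 0.23; KLF6, 0.14 ± 0.054; GADD45G, -0.40 ± 0.14), while EGR1 (-0.0079 ± 0.22) and ARC (0.064 ± 0.23) were near 0. Cell cycle and neurogenesis genes stood at 1 higher and 2 lower of 22 (STMN1, 0.12 ± 0.042; TOP2A, -0.54 ± 0.18; SOX2, -0.15 ± 0.067).

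Estimates in housekeeping groups were small, with list medians within 0.1 log2 of 0. Cytosolic ribosomal protein genes stood at 0 higher and 7 lower of 64 tested, 60 of 64 estimates were negative against 51.8% of all genes, and the median was -0.069. These genes too may vary together across birds, so the 60 are not independent results. RPS27A had -0.18 ± 0.051, and ribosomal genes may share reads with processed copies of them. The ribosomal count was 15 without the TS I bird, 13 without Sample_23625, 11 without Sample_23610, 4 without the TS L bird, without Sample_23711 or Sample_23710, and 2 without the L/I bird. Respiratory chain genes stood at 2 higher and 1 lower of 60, with UQCC5 at 0.24 ± 0.085, ATP5A1 at 0.097 ± 0.040, ATP5J at -0.092 ± 0.043 and ATP5F1B at 0.031 ± 0.064. Heat shock genes stood at 1 higher and 0 lower of 29, with CRYAB at 0.56 ± 0.23 and HSP90AA1 at -0.034 ± 0.11. Of the 29 heat shock estimates, 22 were negative, and the median was -0.071. Cholesterol synthesis stood at 0 higher and 2 lower of 20, with CYP51A1 at -0.15 ± 0.068 and MVD at -0.31 ± 0.14. Endoplasmic reticulum stress genes stood at 0 higher and 1 lower of 20, with CHAC1 at -0.42 ± 0.14.

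**Figure D4:**
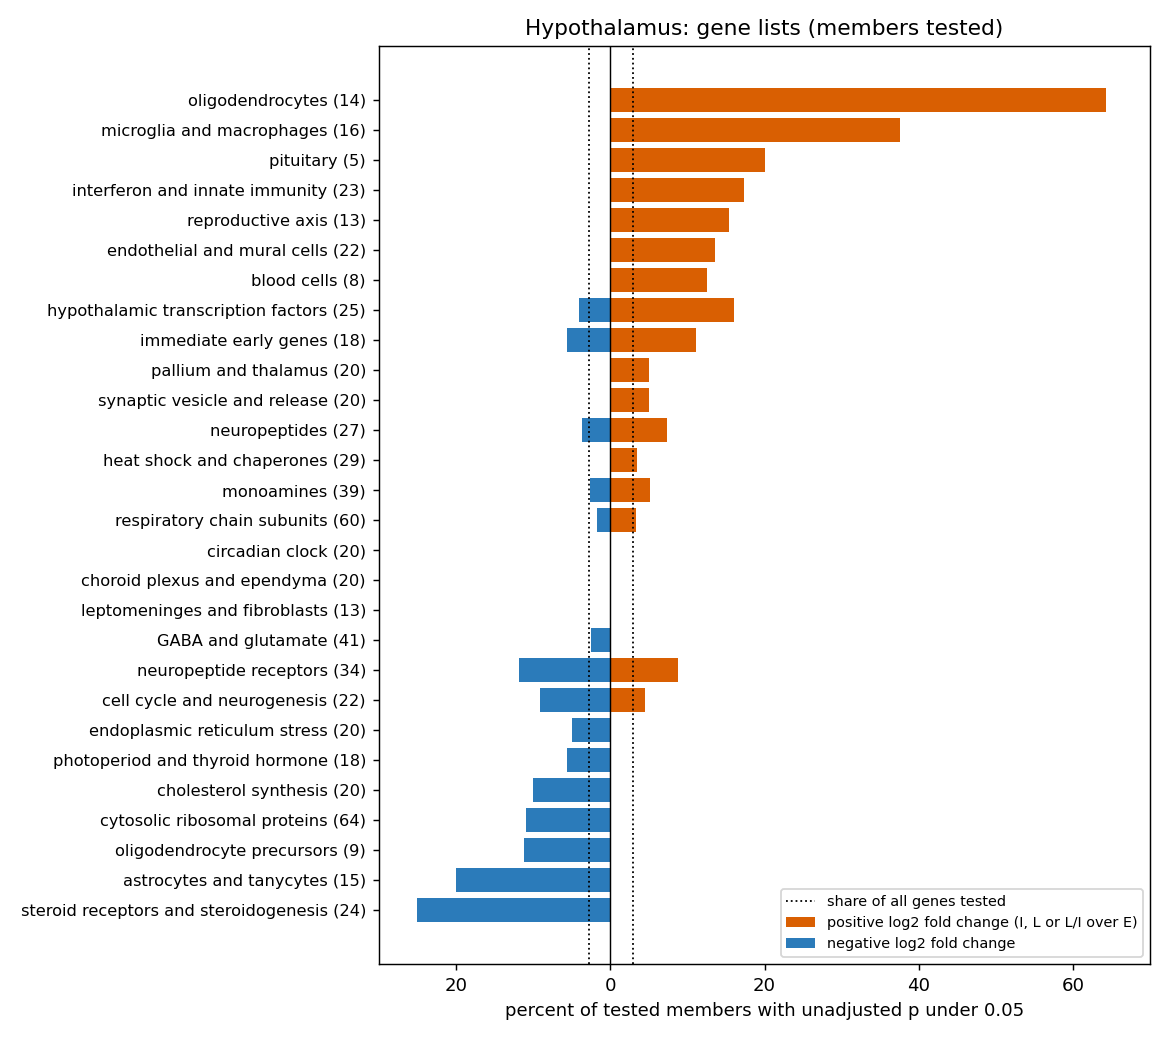
Percent of the tested members of each gene list (number tested in brackets) with an unadjusted p under 0.05 in the hypothalamus, with positive log2 fold changes (I, L or L/I birds over E birds) to the right and negative ones to the left; dotted lines mark the shares over all genes tested, 2.95% and 2.73%. Oligodendrocyte markers, with 9 of 14 members, reach furthest to the right and steroid genes, with 6 of 24, furthest to the left.

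The codes I and L were also fitted apart, each with 1 TS and 1 WS bird. L birds against E birds gave 0 calls and 557 genes (4.48%) at an unadjusted p under 0.05, and I birds against E birds gave 0 calls and 686 genes (5.52%), both with edgeR. L birds against I birds gave 0 calls and 585 genes (4.71%). DESeq2 called 2, 9 and 1 genes in these comparisons. The log2 fold changes against E were 0.649 for L and 0.970 for I birds in CISH, 0.656 and 1.01 in CCDC3, -0.589 and -0.709 in CYP19A1, and -0.699 and -0.827 in BCL6. Both comparisons use the same E birds. The codes lay further apart in TXN (L -0.17, I -0.49), FKBP5 (L -0.32, I -1.29) and the adrenergic receptor ADRA2A (L 0.072, I -0.59), of which none passed in L against I (lowest edgeR adjusted p of the 3, 0.642).

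The test of whether the stage difference differed between morphs gave 0 calls with edgeR and 388 genes (3.12%) at an unadjusted p under 0.05. CISH had a log2 fold change of 0.50 within WS and 1.13 within TS birds, and VIP 0.17 within WS and 0.99 within TS birds. The interaction, WS minus TS, was -0.82 ± 0.29 SE for VIP and -0.63 ± 0.33 SE for CISH (edgeR adjusted p = 1.000 for both). Both WS birds among the 5 were ASY, while 6 of the 8 WS birds labelled E were. Of the 3 TS birds among the 5, 2 were SY, so morph and age class cannot be fully told apart in these values.

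The medial amygdala of the same birds allowed the stage difference to be set beside that of another region. The stage by region term, with each bird as a replicate block, gave 0 calls of 12737 genes and 1026 genes (8.06%) at an unadjusted p under 0.05, and without the block 0 calls and 433 genes. In MeA, CISH had 46.3 and 51.3 CPM in the I birds, 36.1 and 60.8 CPM in the L birds and 64.0 CPM in the L/I bird, against 23.3 to 88.1 CPM (median 48.0) in the E birds. The groups overlapped throughout, and the log2 fold change was 0.86 ± 0.17 SE in HYP, against -0.0077 ± 0.26 SE in MeA. BCL6 had -0.83 ± 0.19 SE in HYP and -0.059 ± 0.10 SE in MeA, and SOCS2 had 0.58 ± 0.17 SE in HYP and -0.061 ± 0.14 SE in MeA. CYP19A1 had estimates of the same sign, -0.59 ± 0.16 SE in HYP and -0.72 ± 0.38 SE in MeA, and so did MYC (-0.46 in HYP and -0.57 in MeA). CISH, BCL6, SOCS2 and MYC were named after their HYP values were seen. Among other genes of lowest p in HYP, mean MeA levels of FN1, VWF, TXN and NAP1L1 differed in the HYP direction. Those of CCDC3, ALDH1A1, RGS2 and SGTB differed in the opposite direction. TXN in MeA was at 132 to 141 CPM in I, L or L/I birds and 127 to 186 CPM in E birds. SGTB was at 353 to 475 and 252 to 471 CPM. The region terms, HYP minus MeA, were 0.80 ± 0.26 SE for CISH, -0.73 ± 0.19 SE for BCL6 and 3.99 ± 1.24 SE for ALDH1A1 (edgeR adjusted p = 0.508 for each), so no gene was shown to differ by stage in 1 region more than in the other. These genes were chosen by their HYP values, which the region terms use again, so the size of the terms is biased away from 0.

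**Figure D5:**
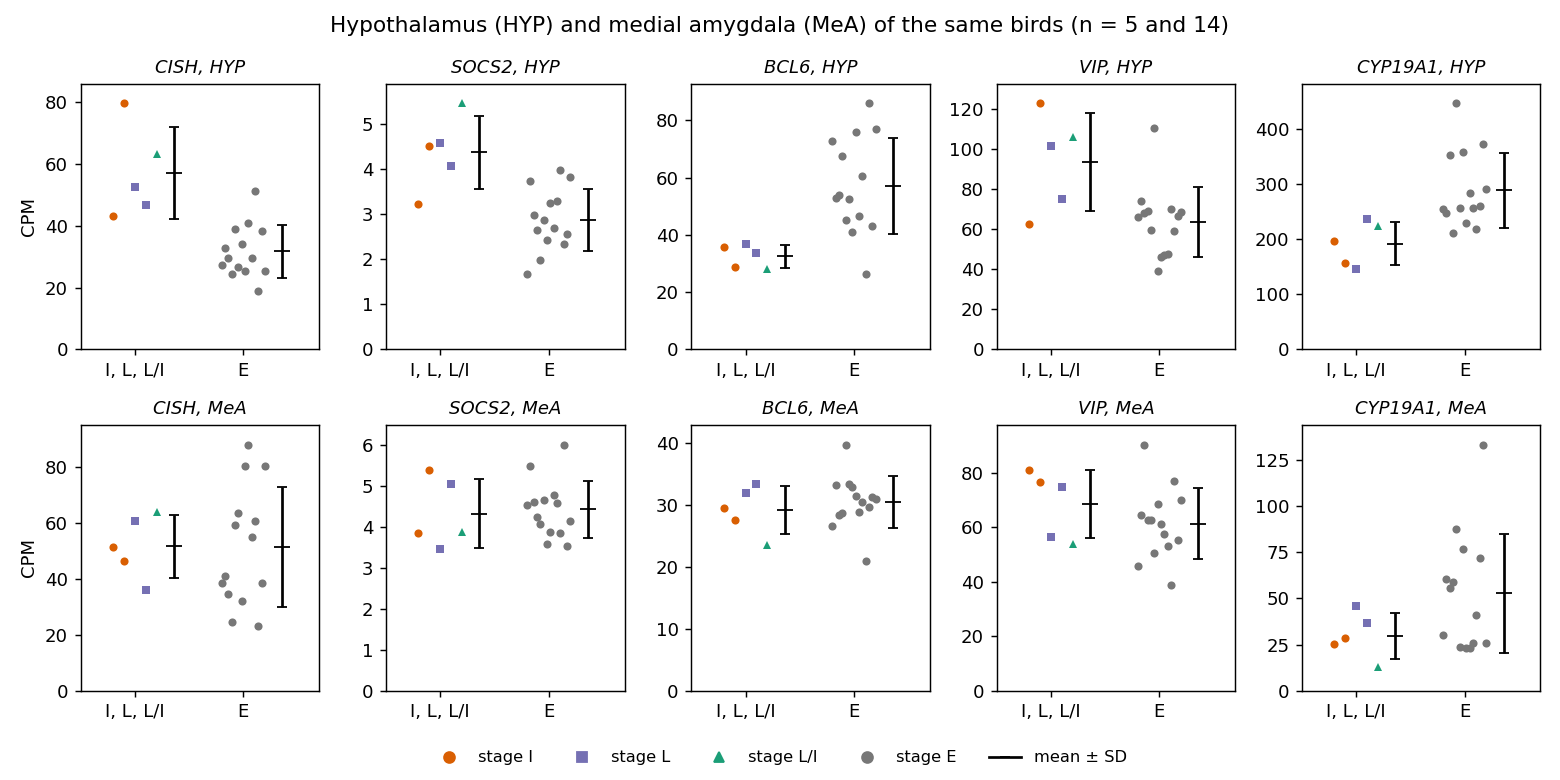
Normalized level (CPM, linear axis from 0, scaled per panel) of 5 genes in the hypothalamus (HYP, upper row) and medial amygdala (MeA, lower row) of the same 19 birds, with birds labelled I, L or L/I on the left, birds labelled E on the right and the mean ± SD of each group. CISH averages 57.0 and 31.7 CPM in HYP and 51.7 and 51.4 CPM in MeA in the groups from left to right. CISH, SOCS2 and BCL6 were chosen after their HYP values were seen, which favours a larger difference in HYP.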

How the data were processed

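RNA-seq libraries of 19 male birds were used, 1 hypothalamic and 1 medial amygdala library each. The authors deposited read counts per gene for all libraries and variance-stabilized values on a log2 scale for each region. Per the labels, libraries were made with an Illumina TruSeq kit from 250 ng of total RNA, and the submitters' processing notes name Novoalign, SAMtools, GATK, STAR, HTSeq and DESeq2 without roles. No source used here gives the genome build.

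Counts as deposited were normalized with TMM, filtered with filterByExpr (minimum count 10) and fitted with edgeR 4.0.16 (R 4.3.3), with stage group and morph as terms and Benjamini-Hochberg adjustment over all genes tested. Calls needed an adjusted p under 0.05. CPM values use the TMM library sizes. Intervals are 95%. DESeq2 1.42.0 and limma 3.58.1 served as alternatives, among them a limma fit of the deposited log2 values. Single values were compared by exact permutation within morph. The stage by region fit paired HYP and MeA through the bird number in the titles, which marks 1 bird. The edgeR fit of stage in HYP was tested on simulated counts, and the other fits were not. P-values of the HYP fits are judged against the spread between birds. Those of the stage by region fit with the bird block are judged against the spread of the HYP minus MeA difference between birds.

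Named genes were the 5 of lowest p in each direction, the 2 most abundant members of each list, and 18 fixed genes, of which some are not reported here. Other named genes, among them each list member named for its unadjusted p under 0.05, were chosen after their values were seen. The comparison, the lists and these rules were chosen with earlier results of these data known. Of 4637 identifiers of the LOC form, 1534 were given a symbol from RefSeq, CYP19A1 and NPVF among them. In all, 2 columns of the count table matched no listed sample and were not used. No source used here says whether counting used strand, so a gene and an overlapping antisense gene may share reads.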

Additional observations from a re-analysis of the deposited data

Results flagged for a closer look

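Among the 152 named genes, 12 had 1 of the 5 I, L or L/I birds far from the other 4, with a gap to the nearest bird of more than 0.71 of the group's range. For 5 values drawn from a normal distribution, chance alone sets about 1 in 20 groups apart by this measure. Whether the CPM values follow that distribution was not tested. Many of the 152 genes were chosen by their values, so that share is only a rough guide.

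CCDC3 was at 9.58 CPM in the TS I bird, the highest of the 5, where the other 4 lay between 5.98 and 6.84 CPM. FN1 was at 83.2 CPM in the WS I bird, the highest of the 5, where the other 4 lay between 67.4 and 71.1 CPM. TLR7 was at 2.44 CPM in the TS I bird, the highest of the 5, where the other 4 lay between 0.725 and 1.22 CPM.

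The WS L bird was the high bird in 4 genes. HDC was at 32.8 CPM in the WS L bird, the highest of the 5, where the other 4 lay between 0.816 and 3.28 CPM. CRH was at 98.9 CPM in the WS L bird, the highest of the 5, where the other 4 lay between 51.2 and 58.3 CPM. CHGB was at 1232 CPM in the WS L bird, the highest of the 5, where the other 4 lay between 777 and 893 CPM. ATP5F1B was at 886 CPM in the WS L bird, the highest of the 5, where the other 4 lay between 749 and 765 CPM.

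The L/I bird stood apart in 3 genes and the TS L bird in 2. HERC4 was at 89.1 CPM in the L/I bird, the highest of the 5, where the other 4 lay between 76.1 and 78.2 CPM. SLC1A2 was at 2192 CPM in the L/I bird, the highest of the 5, where the other 4 lay between 1871 and 1942 CPM. NPPC was at 4.19 CPM in the L/I bird, the lowest of the 5, where the other 4 lay between 6.47 and 7.29 CPM. ARC was at 66.5 CPM in the TS L bird, the lowest of the 5, where the other 4 lay between 107 and 121 CPM. TNR was at 136 CPM in the TS L bird, the lowest of the 5, where the other 4 lay between 170.3 and 182 CPM.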

How the results depend on the processing

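The count of 0 called genes for stage in edgeR held with RLE size factors, with no filter, with robust fitting, with stage alone, without the L/I bird, in WS or ASY birds alone, with L or I birds alone against E, and on the deposited log2 values. It became 14 with DESeq2, 1 with limma-voom, 1 with age class as a term, 1 in TS birds alone and 2 in SY birds alone, and 0 to 2 when each bird was left out. CCDC3 was the gene with limma-voom, with age class, and without Sample_23610 or Sample_23596; NAP1L1 was called without Sample_23705, TXN without the WS L bird, and CISH and LOC102064103 without Sample_23625. Genes at an unadjusted p under 0.05 numbered 462 in ASY birds alone and 619 to 831 without single birds, against 706. Calls for L against E were 1 without the filter, 2 with DESeq2 and 0 to 6 without single birds (6 without the WS L bird, 2 without the TS L bird, 1 without the WS I bird). For I against E they were 9 with DESeq2, where 1206 adjusted p-values were not given, and 0 to 5 (5 without the WS I bird, 3 without Sample_23596, 2 without Sample_23601), and for L against I 1 with DESeq2 and 0 to 2 (2 without the TS L bird, 1 without the WS L or the WS I bird). The morph interaction gave 0 to 2 (2 without the WS I bird). The stage by region term gave 0 with the bird as a replicate block, 0 with no replicate block and 0 without any single bird. The log2 fold change of HDC, 1.65 in the fit reported, was -0.58 with I birds alone against E and -0.23 to 1.95 without single birds (lowest without the WS L bird). No gene was called in the fit reported, so a value under an alternative could only stay uncalled, gain a call or reverse. Among 5168 values of 152 genes under alternatives, 5141 stayed uncalled, 25 gained a call and 2, both of HDC, reversed. Among the 5141, 227 estimates changed sign with an unadjusted p at or over 0.05 in both fits. The 5141 is therefore no measure of how stable the estimates were. Over the alternatives other than single birds, members past the unadjusted threshold numbered 1 to 7 for lower steroid genes, 1 to 9 for higher oligodendrocyte, 1 to 7 for higher microglial and 0 to 4 for lower astrocyte markers, with the lowest counts in fits of some birds only. The cause of these differences was not tested. With a median interval half-width of 0.17 log2, a difference smaller than this in a typical gene lay within its own interval of 0.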

Other observations

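Besides ALDH1A1 and HDC, other genes had log2 fold changes beyond 1 in the hypothalamus at an unadjusted p under 0.05, none with an edgeR adjusted p under 0.05. Those named here were chosen after their values were seen. Values of single birds are not given for them, and how far 1 bird drove each estimate was not tested. PROCA1 had -1.02 ± 0.27 SE (log2 fold change), with 8.91 CPM in I, L or L/I birds and 17.4 CPM in E birds. CPAMD8 had -1.60 ± 0.71 SE (log2 fold change), with 2.08 CPM in I, L or L/I birds and 7.44 CPM in E birds. ROBO2, an axon guidance receptor, had 1.15 ± 0.45 SE (log2 fold change), with 1.83 CPM in I, L or L/I birds and 0.790 CPM in E birds. The 2 other genes whose 5 values lay wholly outside the range of the 14 were USP31, at 38.9 ± 3.18 CPM in I, L or L/I birds and 32.5 ± 2.24 CPM in E birds, and LOC102067211, at 18.5 ± 1.79 CPM in I, L or L/I birds and 26.7 ± 4.83 CPM in E birds.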
